A study of Gallus gallus with 10 samples.

Results

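The white isthmus of 10 dwarf white hens was compared by the thickness recorded for the eggshell membrane of each hen when the tissue was taken. The thicker group was made of the 6 hens with a recorded value of 0.012 or more (Translucent-1, Translucent-3, Translucent-4, Translucent-5, Opaque-3 and Opaque-4). The thinner group was made of the 4 hens with a value of 0.011 (Translucent-2, Opaque-1, Opaque-2 and Opaque-5), so all 10 hens of the series were used. These values were used only to sort the hens, because the unit printed with them does not match the scale of the study's own laid eggs. Translucent-4, with 0.013, was the single hen above 0.012, so that most hens of the groups differed by 1 step of the last recorded digit. The labels call all hens wild type and give translucent or opaque as the genotype, which is called the eggshell class here. The thicker group held 4 translucent and 2 opaque hens and the thinner group 1 translucent and 3 opaque hens, and eggshell class was therefore kept as a covariate. The study places the eggs in the white isthmus at this sampling and reports no significant difference in their membrane thickness between the eggshell classes. In laid eggs it found the thinner membrane in the translucent class. The thickness groups thus describe the egg at sampling and not the laid eggs of a hen. The study's methods state that opaque hens were picked for normal and translucent hens for thinner eggshell membranes. The hens were therefore not unselected for this trait. The labels give no treatment and no age. Each hen gave 1 library of messenger RNA.

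The white isthmus is the stretch of the hen oviduct where the fibers of the shell membranes are spun around the egg white before the shell is laid down in the shell gland. Its gland cells secrete collagen X and cysteine-rich proteins, which are hardened outside the cell by lysine cross-links, made by lysyl oxidases, and by disulfide bonds. Glutathione, a cysteine-containing tripeptide, is the main small thiol of cells, and glutathione S-transferases attach it to reactive compounds. The genes of these processes were described here beside those of the other cell types that a piece of oviduct wall holds.

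Genes known from the eggshell membrane were among the most abundant of this tissue. SPINK7, a Kazal-type protease inhibitor gene, had the highest mean FPKM (read count per length and depth) of all genes, with 72562 over the 10 hens. The gene annotated as collagen type X alpha 1 (ENSGALG00000014965) came next with 28714 FPKM. LOXL2, a lysyl oxidase-like enzyme, had 2786 FPKM. Totals counted on genes were between 11601225 and 19014779 reads in the thicker hens and between 11645691 and 17309287 in the thinner hens, and levels below are CPM (read counts scaled to library size with TMM factors). Translucent-1, a thicker hen, and Opaque-5, a thinner hen, lay apart from the other 8 on the first principal component, with scores of 55.6 and 79.6 against scores of 12.2 or lower. A floor of 3 reads corresponds to between 0.158 and 0.259 CPM depending on the hen.

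Of 13035 genes tested with edgeR's quasi-likelihood test, 0 (0%) passed an adjusted p of 0.05, and the smallest adjusted p was 0.631. Without adjustment, 179 genes had p under 0.05, of which 102 (0.783%) had higher and 77 (0.591%) had lower values in the thicker group, fewer than the 651.8 genes that evenly spread p-values give. At the other end, 925 genes had p above 0.95, more than that even count. An unadjusted p of at most 0.05 with at least a 2-fold difference was met by 36 genes (0.276%) with higher and 23 genes (0.176%) with lower values in the thicker group. The CPM of the 6 thicker hens all lay above those of the 4 thinner hens in 21 genes (0.161%) and all below them in 22 genes (0.169%). The median log2 fold change of all genes, thicker minus thinner, was 0.00, and 91.4% of genes lay within 0.5 of no difference. Of all genes tested, 48.9% had a positive log2 fold change and 1.37% had an unadjusted p under 0.05. The counts of the lists below are to be set beside these shares. The 95% interval of a log2 fold change reached 0.57 to either side in the median gene, before any adjustment for the 13035 genes tested. In a gene of that spread, a smaller observed difference does not reach an unadjusted p of 0.05 under this edgeR fit, and larger ones could also go uncalled. GPR50, with a log2 fold change of 2.59, was not called by edgeR. Leaving out Opaque-5 or Opaque-2 brought the count at an unadjusted p under 0.05 to 413 or 269 genes, and 0 genes were called at the adjusted threshold without either hen. DESeq2 called 11 genes and limma with sample weights called 2, and both sets held GSTA2 and CA12. The DESeq2 set also held GPR50, MSTRG.13387, MSTRG.236, ENSGALG00000050728 and ENSGALG00000043130, beside 4 rows with reads in 1 hen each. All genes below are given as values, since none passed the edgeR test at the adjusted threshold. The edgeR adjusted p was 0.631 for GSTA2 and MSTRG.13387 and rounded to 1 for every other tested gene named.

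GSTA2, which encodes an alpha-class glutathione S-transferase, had the smallest p of all genes with a symbol and separated the groups fully. The thicker hens had between 108 and 135 CPM with a median of 118, against 199.7, 200.2, 180.5 and 171.5 CPM in Translucent-2, Opaque-1, Opaque-2 and Opaque-5. The lowest thinner hen thus lay above the highest thicker hen, in both eggshell classes. The mean was 119 ± 8.86 CPM in the thicker group (SD, n = 6) and 188 ± 14.3 CPM in the thinner group (SD, n = 4). The log2 fold change was -0.68 (SE 0.11, 95% interval -0.93 to -0.44, edgeR adjusted p = 0.631), a level 1.61-fold lower in the thicker group. The difference in mean log2(CPM + 0.5) was -0.74 between the 4 thicker and the 1 thinner translucent hen, and -0.65 between the 2 thicker and the 3 thinner opaque hens. An exact two-sided permutation test within eggshell class gave p = 0.02, which is the smallest value its 50 allocations allow and was reached by 105 genes (0.806%). The leading genes were picked by their p on these same hens. The permutation p-values of such genes are therefore no separate evidence. Under every alternative fit that compared the groups the log2 fold change of GSTA2 stayed between -0.75 and -0.65, also without Translucent-1 and Opaque-5 (-0.75).

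GSTA3, a second alpha-class gene, also separated the groups. The thicker hens had between 1.72 and 9.62 CPM with a median of 5.62, against 20.3, 16.6, 10.7 and 18.6 CPM in the thinner hens. Its log2 fold change was -1.47 (SE 0.37, exact permutation p = 0.02), 2.76-fold lower in the thicker group. Without Translucent-2 it was -0.93, and the differences in mean log2(CPM + 0.5) were -2.17 in translucent and -0.88 in opaque hens. The third gene of this class with p under 0.05 (ENSGALG00000038652, annotated as class-alpha) overlapped between the groups, with 75.2 to 108 CPM in the thicker hens, against 128, 124, 95.8 and 130 CPM in the thinner hens, and its log2 fold change was -0.46 (SE 0.14). The gene annotated as glutathione transferase (ENSGALG00000016322) had a log2 fold change of -0.44 (SE 0.24, exact permutation p = 0.16) and GSTA4 one of -0.11 (SE 0.19, exact permutation p = 0.62). In the RefSeq annotation of assembly GRCg7b these 5 genes lie within 6 consecutive places on chromosome 3. Summed over the 5, the thicker hens had 310 to 410 CPM and the thinner hens 504, 519, 415 and 525 CPM, so that the groups did not overlap but nearly touched. This sum holds GSTA2, which separated the groups by itself, and is no separate evidence. GSTA2 gave 135.1 of the 410 CPM in Translucent-1, a thicker hen, and 180.5 of the 415 CPM in Opaque-2, a thinner hen. The rest of the sum was thus higher in Translucent-1 than in Opaque-2, and without GSTA2 the groups overlapped. The counts of ENSGALG00000038652 were fractional in all 10 hens and those of GSTA3 in 4, meaning that RSEM divided reads between similar genes there, and their levels are uncertain for that reason. The counts of GSTA2 were whole in all 10 hens.

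**Figure D1:**
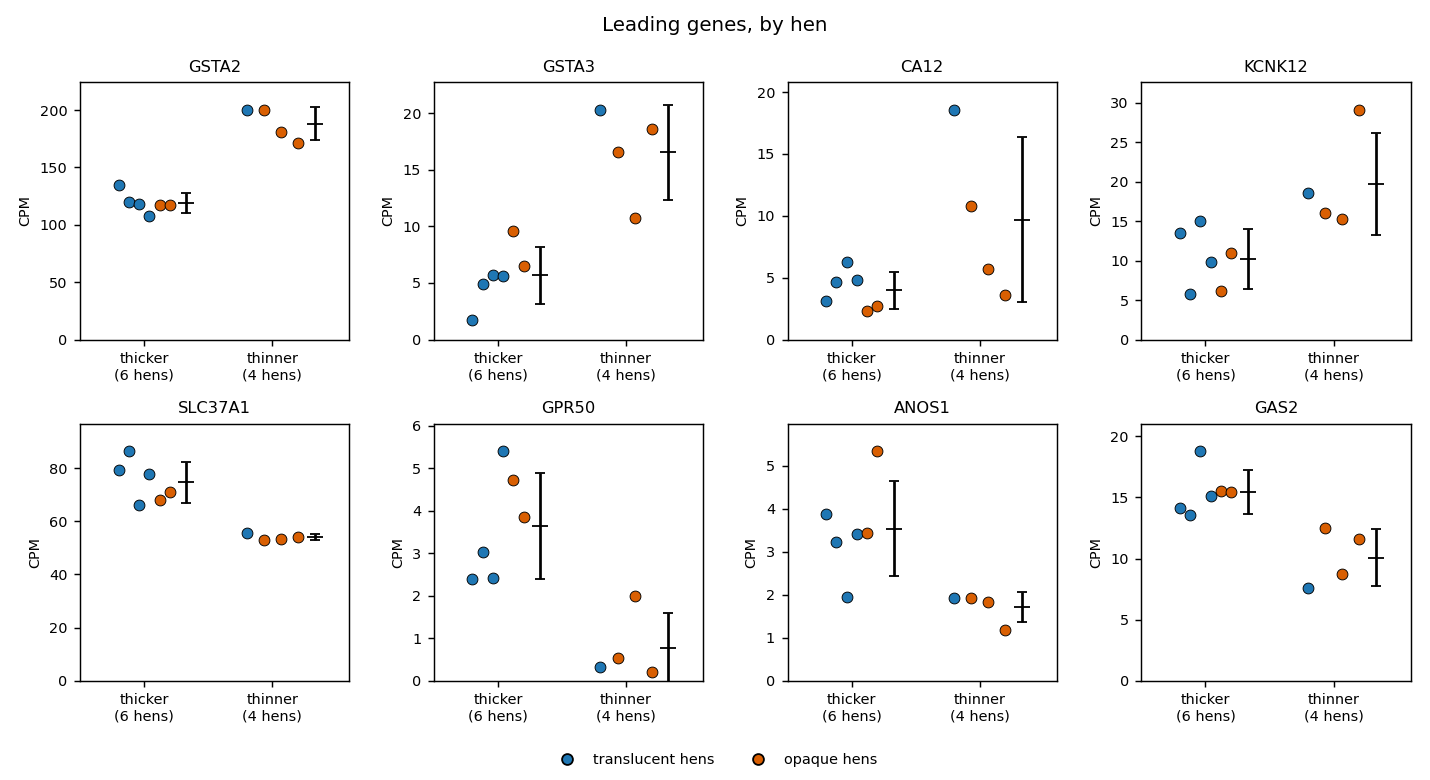
CPM (vertical axes, from 0) of 8 genes in each hen, thicker hens on the left and thinner hens on the right of each panel, blue for translucent and orange for opaque hens, with the mean and SD of each group as a bar. GSTA2 lay between 108 and 135 CPM in the thicker hens and at 171.5 CPM or more in the thinner hens, while CA12 overlapped between the groups.

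Other genes of glutathione metabolism were mixed. This KEGG pathway was counted after its genes had been seen among the leading ones, so its count is a description. Of its 47 genes tested, 7 (14.9%) had an unadjusted p under 0.05, of which 6 had lower and 1 had higher values in the thicker group, beside 1.37% of all genes tested. The 6 with lower values held GSTA2, GSTA3 and ENSGALG00000038652, the alpha-class genes given above, which are counted again here. The median log2 fold change of the 47 genes was -0.02. GPX7, a peroxidase of the endoplasmic reticulum that oxidizes protein disulfide isomerases, had 9.78 to 23.2 CPM in the thicker hens, against 26.08, 16.4, 15.1 and 19.3 CPM in the thinner hens. The groups overlapped, and its log2 fold change was -0.64 (SE 0.19, exact permutation p = 0.02), and -0.31 with no covariate. The genes annotated as gamma-glutamylcyclotransferase (ENSGALG00000030552), an enzyme of glutathione breakdown, and gamma-glutamyltransferase 2 (ENSGALG00000006565), of the family that cleaves glutathione outside the cell, had log2 fold changes of -0.58 (SE 0.21) and -0.49 (SE 0.20). The direction was the other way for a gene annotated as glutathione S-transferase-like (ENSGALG00000028551), with 322 to 490 CPM in the thicker hens, against 279, 284, 220 and 337 CPM in the thinner hens, and a log2 fold change of 0.44 (SE 0.17). Its counts were fractional in all 10 hens. The enzymes of glutathione synthesis showed no such lower values: GCLC, the catalytic subunit of the first step, had a log2 fold change of 0.36 (SE 0.22, exact permutation p = 0.2) and GCLM, its modifier subunit, one of -0.01 (SE 0.13, exact permutation p = 0.9).

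**Figure D2:**
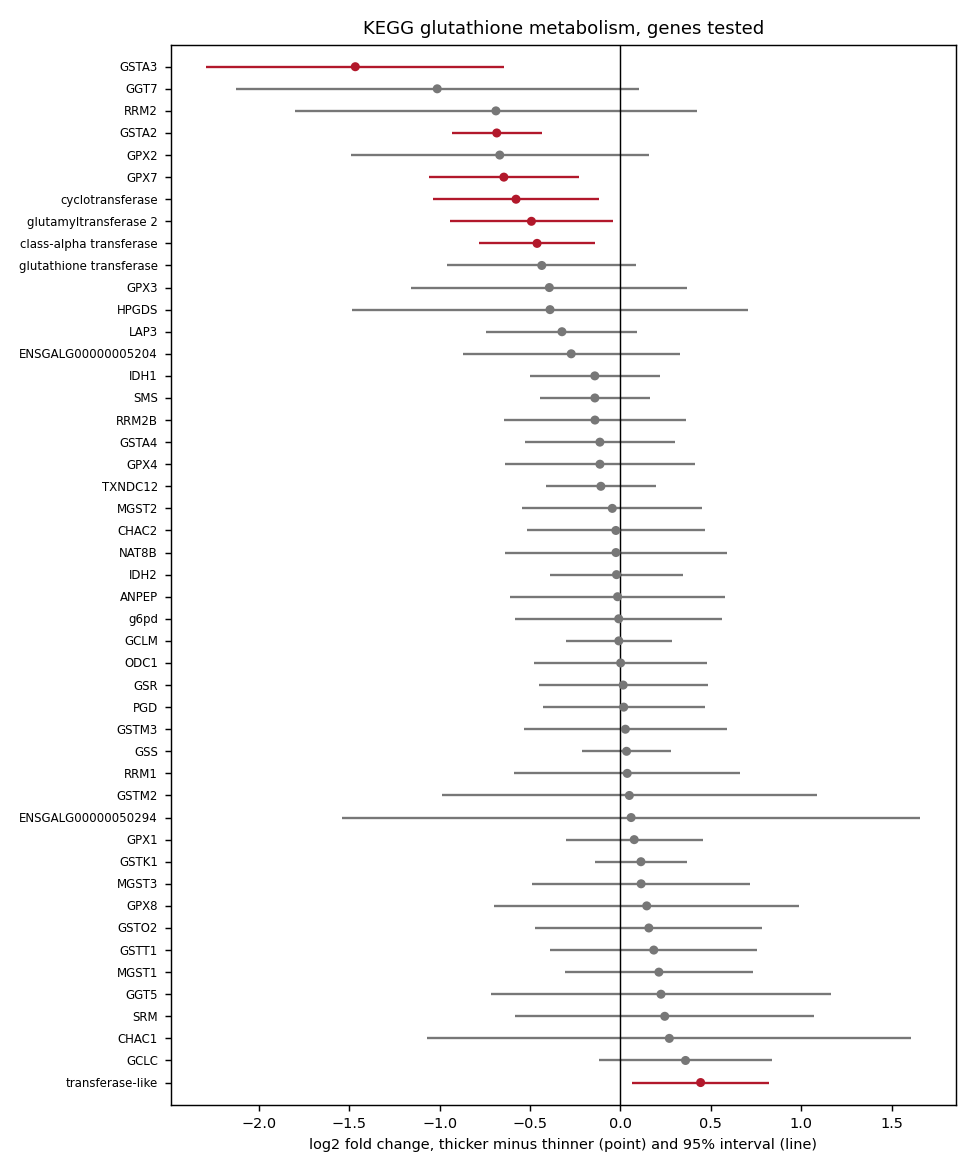
Log2 fold change, thicker minus thinner (horizontal axis), of each of the 47 tested genes of glutathione metabolism as a point with its 95% interval as a line, ordered by size, and red where the unadjusted p was under 0.05. The points spread around a median of -0.02, with 6 red points left of 0 and 1 right of it.

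CA12, a membrane carbonic anhydrase that turns carbon dioxide and water into bicarbonate and acid outside the cell, had the second smallest p among genes with a symbol. The thicker hens had between 2.32 and 6.26 CPM with a median of 3.86, against 18.6, 10.8, 5.73 and 3.56 CPM in Translucent-2, Opaque-1, Opaque-2 and Opaque-5. Opaque-5 and Opaque-2 lay within the range of the thicker hens. The log2 fold change was -1.66 (SE 0.34, exact permutation p = 0.02), and within class the differences in mean log2(CPM + 0.5) were -1.91 in translucent and -1.13 in opaque hens. A pair of the 22 genes that lay lower without overlap is given beside it, chosen after their values were seen. The gene annotated as the kidney isoform of proton pump subunit B (ENSGALG00000051660) had 4.29 to 6.52 CPM in the thicker hens, against 6.81, 7.94, 7.56 and 9.29 CPM in the thinner hens. TMEM213, a small membrane protein gene, had 108 to 132 CPM in the thicker hens, against 145, 149, 136 and 165 CPM in the thinner hens, with a log2 fold change of -0.32 (SE 0.12). The list of ion and water transport genes did not hold CA12, this proton pump subunit gene or KCNK12, which is given below. Of its 23 genes tested, 14 had positive and 9 negative log2 fold changes, between -0.3 and 0.37, with 0 at an unadjusted p under 0.05. AQP3, a water and glycerol channel, had a log2 fold change of -0.26 (SE 0.13, exact permutation p = 0.02) and KCNQ1, a potassium channel, one of 0.33 (SE 0.18, exact permutation p = 0.16).

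Further genes with lower values in the thicker group were of several kinds. TPD52L1, a vesicle-traffic protein of the tumor protein D52 family, had 2.89 to 11.9 CPM in the thicker hens, against 23.2, 21.1, 8.55 and 13.1 CPM in the thinner hens (log2 fold change -1.43, SE 0.39). KCNK12, a potassium channel of the tandem-pore family, had 5.74 to 15.0 CPM in the thicker hens, against 18.6, 15.98, 15.2 and 29.1 CPM in the thinner hens (log2 fold change -1.04, SE 0.35). RGS9BP, which anchors a regulator of G-protein signaling to membranes, had 2.89 to 5.69 CPM in the thicker hens, against 7.45, 6.98, 6.64 and 7.22 CPM in the thinner hens (log2 fold change -0.76, SE 0.24). KCNK12 and RGS9BP did not overlap between the groups, whereas TPD52L1 did. ADORA2B, an adenosine receptor, CNTN1, an adhesion protein best known from neurons, and WDYHV1, an amidase acting on protein ends, overlapped as well, with log2 fold changes of -1.19 (SE 0.37), -0.59 (SE 0.19) and -0.83 (SE 0.27). Without Translucent-2 that of CNTN1 was -0.36.

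Among the genes with higher values in the thicker group, SLC37A1 was the most abundant without overlap. SLC37A1 encodes a sugar-phosphate exchanger of the endoplasmic reticulum. The thicker hens had between 66.3 and 86.4 CPM with a median of 74.3, against 55.7, 53.1, 53.4 and 54.3 CPM in the thinner hens. The thinner hens lay within 3 CPM of each other, and the gap to the lowest thicker hen was wider than that. The log2 fold change was 0.41 (SE 0.12, exact permutation p = 0.02), 1.33-fold higher in the thicker group, and the differences in mean log2(CPM + 0.5) were 0.46 in translucent and 0.37 in opaque hens. GPR50, a receptor related to the melatonin receptors, had 2.40 to 5.40 CPM in the thicker hens, against 0.321, 0.533, 1.99 and 0.198 CPM in the thinner hens, so Opaque-2 came close to the thicker hens and Opaque-5 was below the floor of 3 reads. Its log2 fold change was 2.59 (SE 0.63, exact permutation p = 0.02), and it ranged from 1.45 to 4.41 over the alternatives.

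The other genes at the head of that direction had low levels or overlapped. ANOS1, an extracellular matrix protein gene, had 1.94 to 5.34 CPM in the thicker hens, against 1.93, 1.92, 1.83 and 1.19 CPM in the thinner hens, so the groups touched (log2 fold change 1.11, SE 0.33). GAS2, whose product binds actin and microtubules, had 13.6 to 18.8 CPM in the thicker hens, against 7.58, 12.5, 8.72 and 11.6 CPM in the thinner hens (log2 fold change 0.70, SE 0.21). CCDC28B, a gene linked to cilium assembly, had 1.93 to 3.24 CPM in the thicker hens, against 0.899, 1.49, 1.495 and 1.68 CPM in the thinner hens (log2 fold change 1.05, SE 0.31). GAS2 and CCDC28B did not overlap between the groups. HOXB4, a homeobox transcription factor, and FBXO5, an inhibitor of the anaphase-promoting complex, had log2 fold changes of 0.55 (SE 0.18) and 0.70 (SE 0.22). B3GAT2, a glucuronyltransferase, had a log2 fold change of 1.88 (SE 0.49) at 0.432 to 2.96 CPM in the thicker hens and 0.415 to 0.578 CPM in the thinner hens. Its highest values were those of Opaque-3 and Opaque-4, 2.96 and 2.80 CPM. The differences in mean log2(CPM + 0.5) were 0.38 in translucent and 1.84 in opaque hens. LAMP3, a lysosomal membrane protein gene, had 90.2 and 109 CPM in the thicker opaque hens and between 20.9 and 29.7 CPM in the thicker translucent hens, against 27.0 to 37.0 CPM in the thinner hens. The log2 fold change of LAMP3 of 0.88 (SE 0.27) thus rested on Opaque-3 and Opaque-4, and the difference in mean log2(CPM + 0.5) was -0.02 in translucent and 1.52 in opaque hens, and without Translucent-2 the log2 fold change was 1.54.

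Unannotated rows showed gaps of similar size. MSTRG.13387, a transcript assembled by StringTie, had 2.89 to 14.4 CPM in the thicker hens, against 0.964, 0.426, 0.83 and 0.396 CPM in the thinner hens, and a log2 fold change of 3.70 (SE 0.60, edgeR adjusted p = 0.631). This was the smallest p of all 13035 genes. ENSGALG00000050728 had 10.2 to 15.8 CPM in the thicker hens, against 6.62, 4.37, 8.47 and 6.13 CPM in the thinner hens (log2 fold change 1.08, SE 0.23). ENSGALG00000043130 had 4.55 to 7.29 CPM in the thicker hens, against 2.63, 2.40, 1.16 and 2.17 CPM in the thinner hens (log2 fold change 1.43, SE 0.30), with fractional counts in all 10 hens. None of these rows overlapped between the groups. ENSGALG00000046637 was the single row with reads in every thicker hen and in no thinner hen, but at 1 to 3 reads per thicker hen it did not exceed the floor of 3 reads, and no fold is given. MSTRG.236, a row without a symbol, went the other way, with lower values in the thicker group (log2 fold change -2.09) and reads in all 10 hens.

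Abundant genes known from the eggshell membrane overlapped between the groups. Their 95% intervals leave room for differences in either direction, so a lack of difference is not shown. The gene annotated as collagen type X alpha 1 (ENSGALG00000014965) had 50744 to 62135 CPM in the thicker hens with a median of 55713, against 62820, 56781, 64429 and 66308 CPM in the thinner hens. The ranges overlapped, and the log2 fold change was -0.14 (SE 0.15, 95% interval -0.47 to 0.19, exact permutation p = 0.1). SPINK7 had 50042 to 134563 CPM in the thicker hens with a median of 55698, against 68064, 51986, 48087 and 98689 CPM in the thinner hens. Its highest values were those of Translucent-1 and Opaque-5, the hens that lay apart on the first component, 1 in each group. The log2 fold change of SPINK7 was -0.14 (SE 0.36, 95% interval -0.94 to 0.66). LOXL2 had 5049 to 13218 CPM in the thicker hens, against 9633, 9049, 16898 and 5232 CPM in the thinner hens, with a log2 fold change of -0.22 (SE 0.39, 95% interval -1.08 to 0.65).

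The gene annotated as collagen type X alpha 1 has no symbol in the table and was not counted in the list that follows. The list of membrane fiber proteins and cross-linking enzymes, which also held SPINK7, had 17 genes tested. Of these, 5 had positive and 12 negative log2 fold changes, with a median of -0.08, and 1 had an unadjusted p under 0.05. That gene was TGM4, a transglutaminase, which joins glutamine to lysine side chains. TGM4 had 0.774 to 4.11 CPM in the thicker hens, against 0.964, 0.586, 0.664 and 0.791 CPM in the thinner hens, with a log2 fold change of 1.73 (SE 0.54, exact permutation p = 0.04). Translucent-3 lay within the range of the thinner hens, and the level of TGM4 was far below that of LOXL2, with 0.738 against 2786 mean FPKM. COL17A1, a transmembrane collagen, and LTBP1, a fibrillin-binding matrix protein, had log2 fold changes of 0.22 (SE 0.17) and 0.34 (SE 0.21), and FBN1, a microfibril protein, one of -0.32 (SE 0.44). Of the other collagen genes, 8 of 14 were positive and 6 negative, with 0 at an unadjusted p under 0.05 and a median of 0.01.

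**Figure D3:**
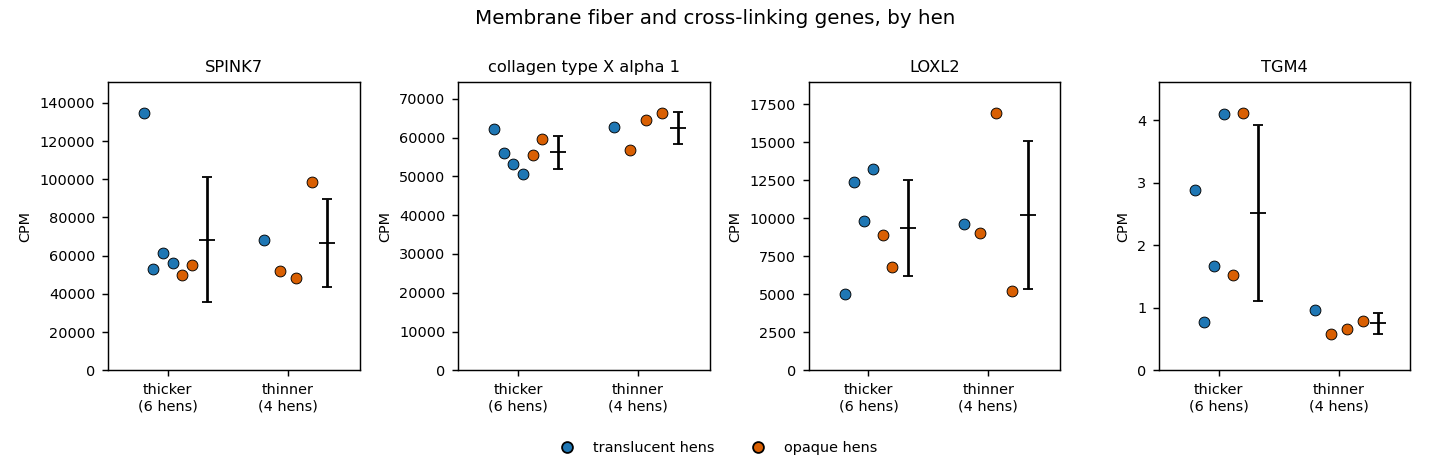
CPM (vertical axes, from 0) of SPINK7, the gene annotated as collagen type X alpha 1, LOXL2 and TGM4 in each hen, thicker hens left and thinner hens right, blue for translucent and orange for opaque, with the mean and SD of each group. The abundant genes overlapped between the groups, and TGM4 reached 4.11 CPM in the thicker hens and 0.964 CPM in the thinner hens.

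In each list of genes for folding and modifying secreted proteins, positive and negative log2 fold changes were both present. Of 24 tested genes of collagen processing, 12 were positive and 12 negative with a median of -0.01, and P4HA3, a collagen prolyl hydroxylase subunit, was the 1 with an unadjusted p under 0.05 (log2 fold change -0.68, SE 0.30). P4HA3 was low, with 0.788 to 1.61 CPM in the thicker hens, against 1.44 to 2.57 CPM in the thinner hens. P4HB, the abundant partner subunit, had a log2 fold change of 0.07 (SE 0.13). Of 27 genes of disulfide formation, 9 were positive and 18 negative with a median of -0.04, and GPX7 was the 1 with an unadjusted p under 0.05. QSOX1, a sulfhydryl oxidase, had 649 to 1075 CPM in the thicker hens, against 1021, 782, 867 and 1088 CPM in the thinner hens, with a log2 fold change of -0.11 (SE 0.17). PDIA3, a protein disulfide isomerase, and TXN, thioredoxin, had log2 fold changes of 0.12 (SE 0.28) and -0.03 (SE 0.28). The unfolded protein response had 13 positive and 11 negative genes and a median of 0.01. The KEGG list of protein processing in the endoplasmic reticulum had 74 positive and 78 negative of 152 genes, and that of N-glycan biosynthesis 22 and 29 of 51, each with 0 genes at an unadjusted p under 0.05. Secretory glycosylation had 12 positive and 13 negative genes, and B3GNT2, which extends sugar chains, had a log2 fold change of 0.86 (SE 0.41, exact permutation p = 0.2).

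Egg white and defense genes, which the neighboring magnum also makes, varied widely between hens, and summed egg white genes had 14393 to 30806 CPM in the thicker hens and 11273 to 26320 CPM in the thinner hens. Of 11 tested egg white genes, 4 were positive and 7 negative with a median of -0.25. LYZ, lysozyme, had 124 to 698 CPM in the thicker hens with a median of 247, against 640, 250, 418 and 442 CPM in the thinner hens. Translucent-1 held the highest value of all hens, and the log2 fold change was -0.94 (SE 0.40, exact permutation p = 0.08). Its counts were fractional in all 10 hens. TF, ovotransferrin, had 10756 to 24715 CPM in the thicker hens and 7997 to 22845 CPM in the thinner hens, with a log2 fold change of -0.25 (SE 0.37). The defensins and ovodefensins had 3 positive and 4 negative of 7 tested genes, and 5 further genes of that list had no read in any hen. AvBD11, a defensin found in eggs, had a log2 fold change of 0.19 (SE 0.30).

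Some lists leaned to one side without a gene of small p, beside 48.9% positive values among all genes tested. The immediate early genes, which cells switch on within minutes of a stimulus, had 21 positive and 3 negative log2 fold changes with a median of 0.30, and 0 of 24 had an unadjusted p under 0.05. EGR3 had a log2 fold change of 1.04 (SE 0.54, exact permutation p = 0.14) and EGR1 one of 1.02 (SE 0.88). FOS, part of the AP-1 transcription factor, had 7.75 CPM in Translucent-1 and 242 to 404.5 CPM in the other thicker hens, against 223, 345, 321.5 and 9.49 CPM in the thinner hens. DUSP1, a phosphatase of the same early response, had 37.6 CPM in Translucent-1 and 28.1 CPM in Opaque-5 and at least 267 CPM in every other hen. Summed over the list, Translucent-1 had 724 CPM and Opaque-5 637 CPM, against at least 2068 CPM in the other 8 hens. Both hens that lay apart on the first component were thus low in these genes, 1 in each group, and the part of this in the list's median was not tested. The same hens were high in HSPA5, the chaperone BiP, with 1564 CPM in Translucent-1 and 1574 CPM in Opaque-5 and between 373 and 813 CPM in the rest, and its log2 fold change was 0.06 (SE 0.60).

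**Figure D4:**
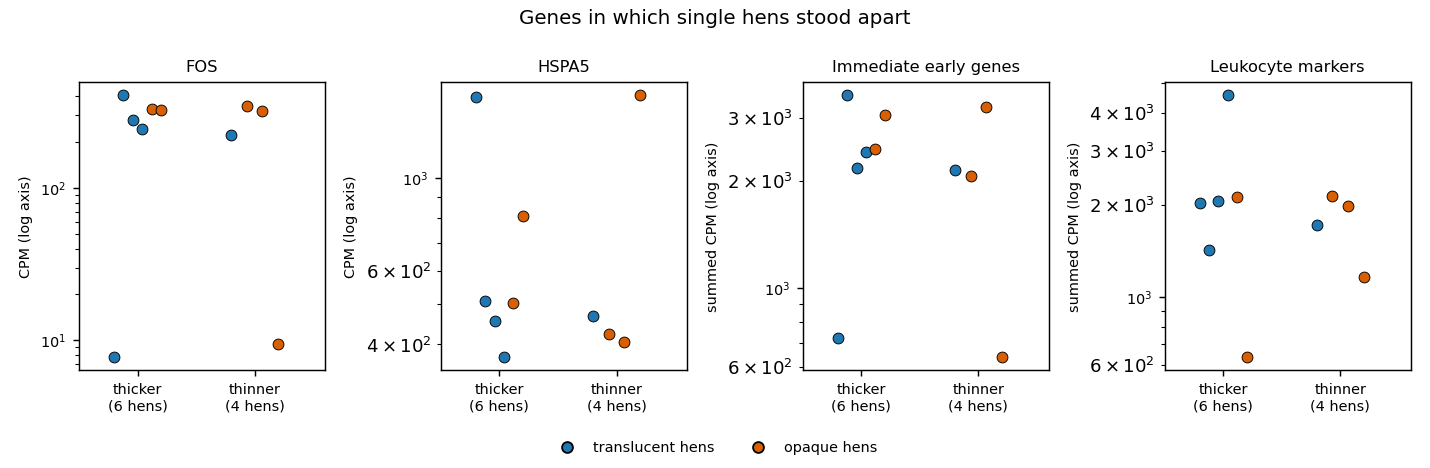
CPM of FOS and HSPA5 and summed CPM of the immediate early genes and of the leukocyte markers (vertical log axes) in each hen, thicker hens left and thinner hens right, blue for translucent and orange for opaque. FOS was 7.75 CPM in Translucent-1 and 9.49 CPM in Opaque-5 and at least 223 CPM in the other hens, and the leukocyte sum ran from 636 to 4557 CPM within the thicker group.

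Leukocyte markers had the largest median of the lists described by symbol, 0.42, with 16 positive and 5 negative of 21 tested genes. In whole tissue, fewer cells of a type and less RNA per cell cannot be told apart. Their summed CPM ran from 636 (Opaque-4) to 4557 (Translucent-5) with a median of 2037 in the thicker hens, against 1162 to 2131 in the thinner hens, so the thicker group held both the lowest and the highest hen. BLB1, a class II histocompatibility gene of antigen-presenting cells, had 24.0 to 71.4 CPM in the thicker hens, against 30.4, 18.7, 18.1 and 25.02 CPM in the thinner hens. It was the 1 gene of the list with an unadjusted p under 0.05 (log2 fold change 0.80, SE 0.29, and 0.49 without Opaque-3), with fractional counts in all 10 hens. JCHAIN, a marker of antibody-secreting cells, had 2954 CPM in Translucent-5 and 157 CPM in Opaque-4, both thicker, against 478 to 1176 CPM in the thinner hens, and a log2 fold change of -0.20 (SE 0.68). CD3D, a T cell marker, had a log2 fold change of 0.86 (SE 0.62). CTSS, a protease of antigen-presenting cells, had 68.3 to 89.5 CPM in the thicker hens, against 25.7, 78.5, 66.1 and 57.7 CPM in the thinner hens (log2 fold change 0.70, SE 0.28). It was taken from the KEGG lysosome list, and its value rested on Translucent-2, since the log2 fold change was 0.18 without that hen.

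Markers of the other cell types overlapped between the groups in their summed levels. Epithelial markers summed to 3825 to 5847 CPM in the thicker hens and 3850 to 6360 CPM in the thinner hens, with 12 positive and 2 negative genes and a median of 0.09. Endothelial markers summed to 376 to 663 CPM in the thicker hens and 348 to 724 CPM in the thinner hens, with 9 positive and 4 negative genes and a median of 0.23. Fibroblast markers had 6 positive and 11 negative genes and a median of -0.18, and DCN, decorin, a log2 fold change of -0.40 (SE 0.26). Smooth muscle markers summed to 756 to 1934 CPM in the thicker hens and 1062 to 1268 CPM in the thinner hens, with a median of 0.03. Motile cilium markers had 4 positive and 8 negative genes and a median of -0.03, and red blood cell markers 8 positive and 2 negative genes and a median of 0.22. PLN of the smooth muscle list, HBE of the red blood cell list and STMN4 of the neural list had no read in any hen. The neural and glial list had 4 positive and 4 negative of 8 tested genes and a median of 0.00, and UCHL1, a ubiquitin hydrolase abundant in neurons, was its 1 gene with an unadjusted p under 0.05 (log2 fold change -0.50, SE 0.19). Genes known from the shell gland had 10 positive and 8 negative of 18 tested genes and a median of 0.07, and RARRES1, the most abundant of them, had a log2 fold change of -0.02 (SE 0.18).

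The remaining lists held few genes with small p, beside 1.37% of all genes tested at an unadjusted p under 0.05. Cholesterol and fatty acid synthesis had 15 positive and 10 negative genes, and SREBF1, a transcription factor of lipid synthesis, was its 1 gene with an unadjusted p under 0.05 (log2 fold change 0.40, SE 0.17). Circadian clock genes had 10 positive and 11 negative, steroid receptor genes 6 and 10, cytosolic heat shock genes 7 and 11, interferon genes 6 and 13, cell cycle genes 7 and 16, and BMP, Wnt and hedgehog genes 16 and 9, each with 0 at an unadjusted p under 0.05. The cell cycle list had a median of -0.17, and the other lists of that sentence had medians between -0.09 and 0.02. The KEGG ribosome list had 34 positive and 82 negative of 116 genes with a median of -0.05, and the proteasome list 5 and 29 of 34 with a median of -0.06, each with 0 genes at an unadjusted p under 0.05. The KEGG lists of oxidative phosphorylation (1 gene of 112 at an unadjusted p under 0.05), protein export (0 of 24), lysosome (2 of 119), ECM-receptor interaction (2 of 72), PPAR signaling (1 of 54), aminoacyl-tRNA biosynthesis (0 of 45), steroid biosynthesis (0 of 15) and focal adhesion (1 of 171) had medians between -0.06 and 0.05. SDC4, a cell-surface proteoglycan, had a log2 fold change of 0.43 (SE 0.17) and ADIPOQ, adiponectin, one of 0.47 (SE 0.17), which was 0.29 without Translucent-2. Of the genes that the study named between the eggshell classes, 24 were tested and 2 had an unadjusted p under 0.05, LAMP3 and RBM3, a cold-inducible RNA-binding protein (log2 fold change 0.34, SE 0.14, and 0.18 without Translucent-2). That list was chosen on these same hens and is not independent evidence.

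**Figure D5:**
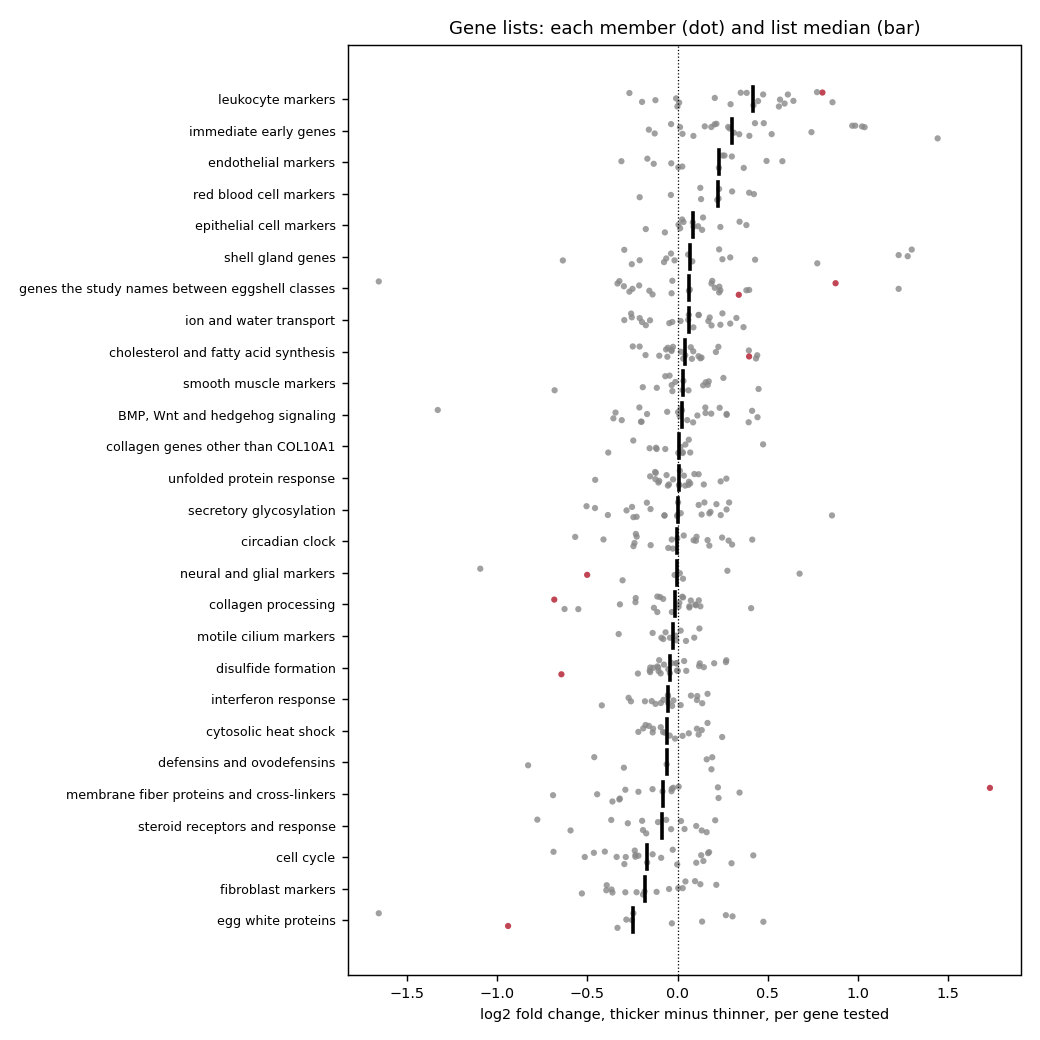
Log2 fold change, thicker minus thinner (horizontal axis), of each tested member (dots, red where the unadjusted p was under 0.05) and the median (bar) of the 27 lists given by symbol, ordered by median. The medians ran from -0.25 for egg white proteins to 0.42 for leukocyte markers, with few red dots in any list.

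Whether the thickness difference itself differed between translucent and opaque hens was tested with an interaction term. With edgeR, 0 of 13035 genes passed an adjusted p of 0.05, the smallest adjusted p was 1, and 173 genes had an unadjusted p under 0.05. The translucent class held only 1 thinner hen, Translucent-2, so the difference within that class rests on this hen. For GSTA2 the interaction term was -0.08 on the log2 scale and for GSTA3 it was -1.25, both with an edgeR adjusted p of 1.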

How the data were processed

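Per the labels and the study's methods, poly(A) RNA of the white isthmus of each hen was sequenced on an Illumina instrument. The authors trimmed the reads with fastp, removed ribosomal reads with Bowtie2, aligned the rest with HISAT2, assembled transcripts with StringTie and estimated gene levels with RSEM. The genome build and tool versions are not given in the sources used here. The deposited table holds expected counts, not normalized, of which 6.73% were fractional (tolerance 0.001), and FPKM, which the authors scaled by gene length and by depth. It has 17617 rows.

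The expected counts were rounded to whole numbers. With edgeR 4.0.16 in R 4.3.3, TMM factors, filterByExpr by thickness group and the quasi-likelihood test with eggshell class as covariate were used, with Benjamini-Hochberg adjustment over 13035 genes. A gene was called at an adjusted p under 0.05. The study states both an adjusted p under 0.05 with an absolute log2 fold change over 1 and an unadjusted p of at most 0.05 with at least 2-fold, and both were counted beside it. By the first, 0 genes passed. log2 CPM for the exact permutation test had a prior count of 2. Differences within an eggshell class are of log2(CPM + 0.5). Thickness values came from the study's sample table, and groups of eggshell class from the labels. P-values measure the spread between hens. Floors cover counting error only, since PCR copies were counted as reads.

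Named genes were, in each direction, the 10 with a symbol, a mean of at least 1 CPM and the smallest p. From each list, genes were drawn from the 2 with the smallest p and the 2 with the highest mean FPKM. Genes among the 10 of highest mean FPKM and any row with reads in all hens of one group and none of the other were added. Glutathione genes, a proton pump subunit gene, TMEM213, unannotated rows and some members of the lists were added once their values were known. The members and lists were chosen with earlier results of these data known. Of 13961 NCBI gene numbers in the table's descriptions, 13642 were found in RefSeq.

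The alternatives were DESeq2 1.42.0, other scalings and filters, other covariates, a replicate block, thickness as a number, fewer hens, and limma 3.58.1 on log2 FPKM with pseudocounts of 1 and 0.1. The limma voom fit with sample quality weights and the robust quasi-likelihood fit were chosen after seeing the data. The edgeR fit was tested on simulated counts without an eggshell class effect and without hens that lay apart, so that test does not cover these features of the data. Plots were made in Python 3.11.15 (matplotlib 3.10.9). The proteome was not analysed here.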

Additional observations from a re-analysis of the deposited data

Results flagged for a closer look

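Among the genes named, 94 were examined in both groups for a hen far from the rest of its group (Dixon's ratio of log2 CPM at the 95% level). Of these 188 sets of hens 18 (9.57%) were marked, and 5 of them were Translucent-1 among the thicker hens and 10 were Opaque-5 among the thinner hens. In independent sets of unselected genes, chance would mark about 1 in 20. The genes here came from the same hens, and some were picked once their values were known, so the share is a description.

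Translucent-1 stood apart from the other thicker hens with 134563 CPM of SPINK7, 24715 CPM of TF, 128.7 CPM of CRY2, a clock repressor, 7.75 CPM of FOS and 37.6 CPM of DUSP1. SPINK7 and TF were high there and the others low. Opaque-5 stood apart from the other thinner hens with 1574 CPM of HSPA5, 2754 CPM of ATF4, a stress-response transcription factor, 2326 CPM of EPCAM, an epithelial adhesion protein, 8214 CPM of COX3 and 3774 CPM of ATP6, both mitochondrial, and 10.2 CPM of FBN1. It also stood apart with 9.49 CPM of FOS, 28.1 CPM of DUSP1, 1.19 CPM of DUSP4, another early phosphatase, and 1.19 CPM of ANOS1. FBN1, FOS, DUSP1 and ANOS1 were low there and the others high.

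Translucent-5 stood apart from the other thicker hens with 146.5 CPM of PECAM1, an endothelial adhesion protein, and with 44.6 CPM of FADS2, a fatty acid desaturase. Opaque-4 stood apart from them with 33.9 CPM of IGLL1, an immunoglobulin light chain gene. The value of the first was high and those of FADS2 and IGLL1 were low.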

How the results depend on the processing

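No gene was called at an adjusted p under 0.05 by edgeR or by limma on log2 FPKM under any alternative, and the smallest adjusted p of these was 0.0548, in the opaque hens alone. DESeq2 called 11 genes, of which 4 had reads in 1 hen each and were not among the 13035 genes tested by edgeR. Voom with sample quality weights called 2, GSTA2 and CA12. It gave Translucent-1 and Opaque-5 the lowest weights (0.319 and 0.23) and Translucent-2, the only thinner translucent hen, the highest (3.15). How far the 2 calls rest on Translucent-2 was not tested. The adjusted p of GSTA2 ran from 3.06e-05 (DESeq2) to 1 and that of CA12 from 0.0185 (DESeq2) to 1 over the alternatives. The count at an unadjusted p under 0.05, 179 by edgeR, was 292 with DESeq2, 326 in the 6 hens numbered 1 to 3, 513 without Translucent-1 and Opaque-5, and 1116 with voom and sample weights, and lay between 151 and 413 when single hens were left out, where the highest counts were those without Opaque-5 (413) and Opaque-2 (269). The 1116 were of the same 13035 genes and lay above the 651.8 that evenly spread p-values give. Of the 179 genes, 138 were shared with the 513 and 172 with the 1116. Fewer were shared with no covariate (111), with the egg-laying interval as a further covariate (110) and with thickness as a number (73). The shared count was 49 without Translucent-2 and 35 in the opaque hens alone. The cause of these differences was not tested.

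The hens of both eggshell classes share the numbers 1 to 5, which belong to different animals. Deviations of same-numbered hens from their class means had correlations between -0.41 and 0.1 with a mean of -0.13, 0 of 5 hens correlated best with its own number, and the numbers were not taken as pairs. With the replicate block, 0 genes were called and 143 had an unadjusted p under 0.05, of which 23 were shared with the 179. Among named genes whose log2 fold change was at least 1 SE from 0, the block turned the log2 fold change of LYZ (0.035), FADS2 (-0.12), CRY2 (-0.015) and COL17A1 (-0.14), that of SELENOM, a selenoprotein of disulfide exchange, was 0.065 with no covariate, and that of LTBP1 was -0.016 in the 6 hens numbered 1 to 3. Named genes closer to 0 than 1 SE also changed sign, among them SPINK7 (up to 0.23), LOXL2 (up to 0.18), TF (up to 0.61), FBN1 (up to 0.42) and JCHAIN (up to 0.55). A gene removed by the filter of an alternative has no value there. The depth limits genes near the floor, GPR50 among them, and 4 thinner hens, 1 of them translucent, limit all others.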
